A study of Mus musculus with 22 samples.

Results

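The inflammasome sensor genes described here were *Nlrp1a*, *Nlrp1b*, the pseudogene *Nlrp1c-ps*, *Nlrp3*, *Naip1*, *Naip2*, *Naip5*, *Naip6* and *Nlrc4*. Every region of the deposited tables whose nearest annotated transcription start site belonged to one of these 9 genes was taken, which gave 56 of 96381 open-chromatin windows of 1000 bp in the parental strains and 107 of 217456 regions of 200 bp in F1 hybrids. *Naip6* had none in either table, so 8 of the 9 genes could be described. The genes were selected on the measured H3K27ac difference between A/J and BALB/cJ, and on the strain levels at *Nlrp1*, so those values, and all strain values of the *Nlrp1* genes, are given as a description without a test.

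H3K27ac, the acetylation of lysine 27 on histone H3 that marks active promoters and enhancers, was measured by ChIP-seq in Kupffer cells, which are liver macrophages, from young adult, untreated male mice of the inbred strains A/J, BALB/cJ and C57BL/6J, with 3 libraries per strain. Matched ChIP input, sheared chromatin sequenced without an antibody, had 3 libraries for A/J, 3 for BALB/cJ and 1 for C57BL/6J. The same mark was measured in 3 libraries from CB6F1/J hybrids, the offspring of BALB/cJ females and C57BL/6J males, in which reads crossing a sequence difference were assigned to a parental allele. All livers were digested in the presence of flavopiridol, a transcription inhibitor, and live CD45-positive, F4/80-high, CD11b-intermediate, CD146-negative cells were sorted.

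The parental ChIP libraries held 2291425.5 to 12980348 counts in windows, the inputs 583517.5 to 1916587.5, and the F1 allele columns 182653.5 to 400681. Replicate 2 of each parental strain stood apart. It was the shallowest library, and 34.4% to 38.8% of its window counts ended in 0.5, a step that replicates 1 and 3 did not show and whose origin was not stated. All 10 Kupffer cell markers, among them *Clec4f*, *Timd4* and *Vsig4*, had windows, and their summed level was 13265 to 15473 normalized counts in A/J, 13888 to 15353 in BALB/cJ and 14885 to 19867 in C57BL/6J. Summed stellate cell markers were 118 to 200.2 in C57BL/6J against 30.4 to 59.3 in A/J and 24.1 to 45.6 in BALB/cJ, and 5 of these genes (Col3a1, Dcn, Des, Lrat and Reln) had no window. Hepatocyte markers summed to 371 to 523 in A/J, 579 to 655 in BALB/cJ and 626 to 712 in C57BL/6J, with 4 of 8 genes in windows, and endothelial markers, all 8 with windows, to 2091 to 2494, 2018 to 2428 and 1849 to 2038 in that order. Of the other lists, the ranges of monocyte and neutrophil, B cell, and T and NK cell markers overlapped between all strains, and BALB/cJ was lowest for dendritic cell markers (999 to 1198 against 1284 to 1653). The part of these differences in the results was not tested.

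Inflammasomes are cytosolic complexes in which a sensor protein recruits and activates caspase-1, which matures interleukin-1β and interleukin-18 and cleaves gasdermin D. NLRP1 proteins are activated when pathogen proteases cut them or when their proteasomal decay is triggered, and *Nlrp1b* alleles are known for setting macrophage sensitivity to anthrax lethal toxin. NLRP3 responds to potassium efflux and other cell damage, whereas NAIP proteins bind bacterial flagellin or type III secretion components and then engage NLRC4, which forms the ring that recruits the caspase. Kupffer cells lie in the stream of gut-derived bacterial products that reaches the liver.

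Windows of the *Nlrp1* genes carried the largest strain differences of the set, so the reference promoters of *Nlrp1a* and *Nlrp1b* are shown first, from RefSeq on GRCm38.p6. Each runs along the gene strand, which is the minus strand of chromosome 11, and ends at the base before the start site, at chr11:71144705-71144954 for *Nlrp1a* and chr11:71230734-71230983 for the distal of 2 *Nlrp1b* start sites. Capitals mark a C/EBP motif, TTNNGCAA, followed by a PU.1 motif, GAGGAAGT, both searched on both strands over 300 bases, the 250 printed and 50 past the start site.
Nlrp1a promoter: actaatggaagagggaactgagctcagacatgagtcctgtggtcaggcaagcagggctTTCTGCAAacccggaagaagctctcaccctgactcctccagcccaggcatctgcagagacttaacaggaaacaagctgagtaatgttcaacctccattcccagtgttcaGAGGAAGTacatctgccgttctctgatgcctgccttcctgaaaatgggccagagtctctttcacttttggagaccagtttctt
Nlrp1b promoter: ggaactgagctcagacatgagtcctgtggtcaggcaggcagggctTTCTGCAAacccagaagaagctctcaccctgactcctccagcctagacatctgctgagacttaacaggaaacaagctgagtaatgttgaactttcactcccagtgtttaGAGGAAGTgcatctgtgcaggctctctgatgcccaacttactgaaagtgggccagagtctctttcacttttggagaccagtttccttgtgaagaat
The pair aligned over 237 bases with 219 identical (92.4%). The PU.1 letters began 83 bases before the *Nlrp1a* start site and 96 bases before that of *Nlrp1b*, and the C/EBP letters 192 and 205 bases before. Of 32851 promoters of 300 bases, 3.20% held the PU.1 letters and 10.8% the C/EBP letters. A match describes the letters and not a bound site. Copies this similar can share or lose short reads, so levels among the *Nlrp1* genes, and likewise among the *Naip* genes, are uncertain to that extent.

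Of the *Naip* family, 3 promoters are shown, because these genes hold the windows in which C57BL/6J stood above both other strains. All lie on the minus strand of chromosome 13 and are written along the gene, at chr13:100452865-100453114 for *Naip1*, chr13:100202123-100202372 for *Naip2* and chr13:100247337-100247586 for *Naip5*. Capitals mark CCTTTAAGAGG and TATAGCCTGG, runs of 11 and 10 bases that all 3 shared.
Naip1 promoter: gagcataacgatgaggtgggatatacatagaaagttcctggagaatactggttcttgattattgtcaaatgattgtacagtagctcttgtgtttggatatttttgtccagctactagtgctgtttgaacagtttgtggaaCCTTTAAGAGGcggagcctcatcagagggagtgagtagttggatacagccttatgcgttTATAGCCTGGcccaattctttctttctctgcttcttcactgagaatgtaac
Naip2 promoter: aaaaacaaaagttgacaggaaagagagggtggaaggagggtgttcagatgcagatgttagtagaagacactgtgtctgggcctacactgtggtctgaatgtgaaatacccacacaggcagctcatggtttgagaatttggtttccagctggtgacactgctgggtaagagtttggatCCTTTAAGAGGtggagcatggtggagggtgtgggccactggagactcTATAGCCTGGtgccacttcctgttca
Naip5 promoter: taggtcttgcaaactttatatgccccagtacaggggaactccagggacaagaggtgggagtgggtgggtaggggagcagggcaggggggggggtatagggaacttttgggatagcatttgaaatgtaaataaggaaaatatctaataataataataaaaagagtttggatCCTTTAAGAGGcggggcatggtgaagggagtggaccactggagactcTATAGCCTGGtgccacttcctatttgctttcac
The longer run began 110, 73 and 80 bases before the start sites of *Naip1*, *Naip2* and *Naip5*, and the shorter run 51, 26 and 33 bases before. Only 30 of all promoters (0.0913%) held the first run and 20 (0.0609%) the second, and the *Naip6* promoter held neither. Across the 10 promoters of 8 member genes in the table, the PU.1 letters were in 2, the C/EBP letters in 3, the IRF letters GAAANTGAA in 1 (*Naip2*, across the start site, so that the printed bases hold only part of them) and the AP-1 letters TGANTCA in 0, against 2.21% and 7.81% of all promoters for IRF and AP-1.

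**Figure D1:**
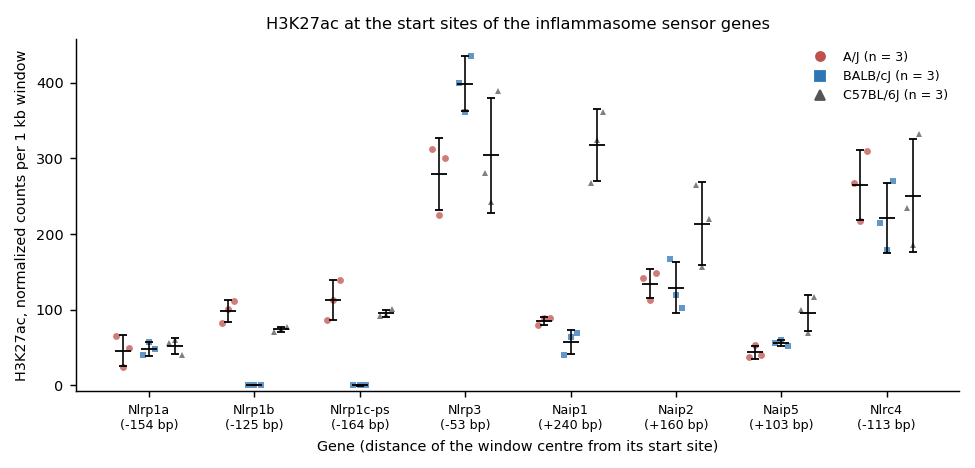
H3K27ac at the window nearest the start site of each gene, in normalized counts per 1 kb window (y axis), for 8 genes with the distance of the window center from the start site (x axis). Points are libraries and bars the mean ± SD of 3 libraries per strain: the BALB/cJ points of Nlrp1b and Nlrp1c-ps lie at or near 0, and the C57BL/6J points of Naip1 lie above all others of that gene.

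Levels are normalized counts, that is, counts per window scaled to a common library size by TMM factors, and differences are log2 fold changes with their standard error (SE) from edgeR's quasi-likelihood test. A call required a p under 0.05 after Benjamini-Hochberg adjustment over all 60387 windows tested, together with a log2 fold change beyond 1 in either direction. Of the 56 windows, 51 passed the filter of a mean over 16 normalized counts. The 5 that did not were *Nlrp1b* at +5823 bp, *Nlrp3* at -12816 bp, *Naip1* at +50868 and +54064 bp, and *Naip2* at -11728 bp, where distances run from the start site and negative values are upstream. Nothing in the labels says that libraries came from separate animals, so p-values measure the spread between libraries.

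Between A/J and BALB/cJ, 8 of 51 windows were called, where 3.63% of all windows were. In A/J, 7 of them were higher (1.4% of all windows) and 1 lower (2.23%). This contrast chose the genes and nothing is read from the count. Against C57BL/6J, 10 windows were called in A/J and 14 in BALB/cJ, where 7.09% and 8.56% of all windows were called. Of the 14, 6 are windows of the *Nlrp1* genes, whose strain levels chose the genes, and nothing is read from those. Over the 43 tested windows outside *Nlrp1*, A/J was called higher in 2 (3.16% of all windows) and lower in 8 (3.93%), and BALB/cJ higher in 0 (4.46%) and lower in 8 (4.1%). These 2 contrasts share the C57BL/6J libraries. Each also shares its A/J or BALB/cJ libraries with the contrast that chose the genes, so their p-values are not independent of that choice. The counts include 1 window in each contrast that passed the level filter through a single strain, *Nlrc4* at +11630 bp through A/J and *Naip1* at +15992 bp through C57BL/6J. Over the 47 windows outside *Nlrp1* without a filter, 11 and 8 were called, where 5186 and 6391 of all 96381 windows were called. The median log2 fold change over the 43 windows was -0.09 for A/J and -0.07 for BALB/cJ, and -0.01 over all windows in both. The calls were not spread evenly over the genes, as the plot of fold changes by gene shows.

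**Figure D2:**
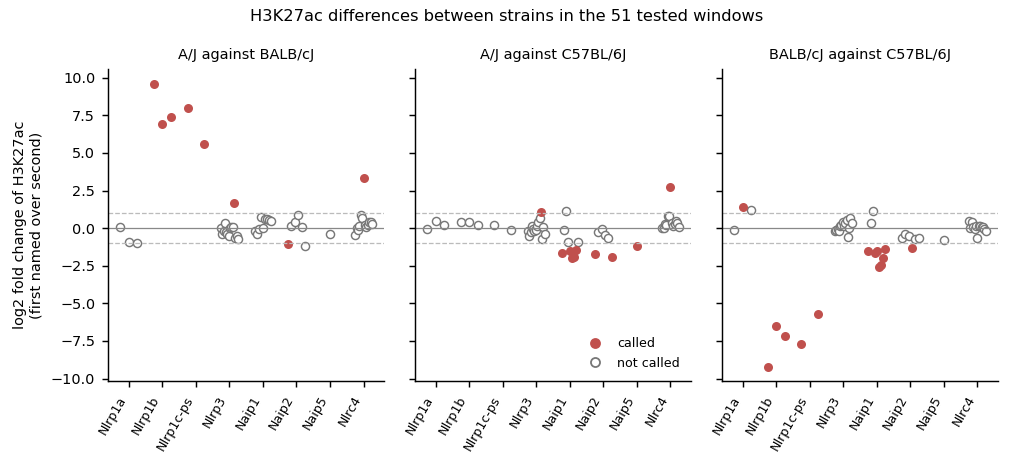
Fitted log2 fold change of H3K27ac (y axis) in each of the 51 tested windows by gene (x axis), with 1 panel per strain contrast, filled points called and open points not called, and dashed lines at an absolute log2 fold change of 1. Called points lie far from 0 for Nlrp1b and Nlrp1c-ps where BALB/cJ is compared, where the fitted size is set against counts at or near 0, is no bound and is shown without a test, and below 0 for Naip1 in both contrasts with C57BL/6J.

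The *Nlrp1* genes lie in a row on the minus strand of chromosome 11, and within that row *Nlrp1b* and *Nlrp1c-ps* differed from *Nlrp1a*. At the *Nlrp1b* start site, in the window at -125 bp (chr11:71230358-71231358), normalized counts were 82.5, 101 and 111 in A/J and 70.6, 74.5 and 77.5 in C57BL/6J. All 3 BALB/cJ libraries were at 0 there. The A/J and C57BL/6J groups did not overlap, A/J being higher in each library, and the fitted difference between them was 0.39 ± 0.26 (SE). Against the limit of 3 counts over the 3 BALB/cJ libraries, the level was at least 97.6-fold higher in A/J (98.0 ± 14.3, SD, n = 3) and at least 75.1-fold higher in C57BL/6J (74.2 ± 3.43, SD, n = 3). Such limits cover counting error only.

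Upstream of *Nlrp1b*, inside intron 8 of *Nlrp1c-ps*, a pair of overlapping windows showed the same order of strains. The window at -21184 bp (chr11:71251417-71252417), the highest of the 3 genes, had 103, 136 and 166 normalized counts in A/J and 108, 130.4 and 108 in C57BL/6J, whereas BALB/cJ had 1.69, 0 and 0. From 442 raw counts for A/J, 309.5 for C57BL/6J and 2 for BALB/cJ, the ratios were 204 (95% exact counting interval 56.1 to 1689) and 167 (46.0 to 1389). Its neighbor at -20784 bp (chr11:71251017-71252017) shared reads with it and gave 76.6, 113 and 101 for A/J, 85.3, 48.9 and 75.6 for C57BL/6J, and 1.69, 0 and 0 for BALB/cJ. A/J and C57BL/6J overlapped in both windows, and BALB/cJ lay below all 6 other libraries in both. The window at +5823 bp in intron 2 of *Nlrp1b* (chr11:71224410-71225410) was low throughout, at 5.93 to 9.57 in A/J and 2.33 to 7.99 in C57BL/6J, with 0 in the 3 BALB/cJ libraries.

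*Nlrp1c-ps*, annotated as a non-coding pseudogene, followed *Nlrp1b*. At its start site (-164 bp, chr11:71284896-71285896) the libraries read 86.1, 113 and 139.7 in A/J and 91.9, 93.1 and 101 in C57BL/6J. BALB/cJ had 0, 0 and 0.730, a total of 1 raw count, and the ratio was 342 for A/J (60.9 to 13519.5) and 291 for C57BL/6J (51.9 to 11566). Upstream at -4458 bp (chr11:71289190-71290190, intergenic) A/J had 30.2, 20.8 and 53.0, C57BL/6J 38.6, 62.9 and 29.0, and BALB/cJ 0, 0 and 1.46. The 2 other strains overlapped in both windows, with a fitted median of 0.05 for A/J over C57BL/6J, while BALB/cJ lay below every other library. The 5 tested windows of *Nlrp1b* and *Nlrp1c-ps* passed the level filter through A/J and C57BL/6J alone.

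*Nlrp1a* carried the mark in all strains. In the promoter window at -154 bp (chr11:71144358-71145358) normalized counts were 64.8, 23.7 and 49.2 in A/J, 39.7, 57.2 and 47.5 in BALB/cJ, and 56.0, 60.5 and 39.7 in C57BL/6J. The 3 groups overlapped, at means of 45.9 ± 20.7, 48.1 ± 8.79 and 52.1 ± 11.0 (SD, n = 3 each), a level at the 60.2 percentile of all windows. The overlapping windows named for *Nlrp1a* at -14925 and -15256 bp lie inside intron 12 of *Nlrp1b*, and here BALB/cJ was the highest strain. At -14925 bp (chr11:71159129-71160129) it had 22.8, 36.6 and 22.6 against 13.3, 17.8 and 12.3 in A/J and 5.33, 16.3 and 10.1 in C57BL/6J, with no overlap between BALB/cJ and the others. The fitted difference from C57BL/6J was 1.39 ± 0.45 (SE) there and 1.22 at -15256 bp, both given without a test. These 2 windows passed the level filter through BALB/cJ alone.

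At *Nlrp1b* and *Nlrp1c-ps* the ChIP inputs followed the same strain pattern as the mark. Of 54 input windows tested, 5 were called for A/J over BALB/cJ, where 0.0386% of all 93225 windows were called (0.0161% with A/J above). The same pair of strains chose the genes, and windows with 0 BALB/cJ input counts passed the input filter through the other strains, so nothing is read from the count and the values are a description. The 5 were the 4 *Nlrp1b* windows and the *Nlrp1c-ps* window at -4458 bp. At the *Nlrp1b* promoter the raw input counts were 11.5, 19 and 12 in A/J, 0 in each BALB/cJ library and 5.5 in the C57BL/6J library. The A/J level was at least 11.0-fold higher. At -21184 bp A/J held 13.5, 23 and 8.5 input counts and C57BL/6J 9.5, again with 0 in every BALB/cJ library (at least 11.6-fold higher in A/J). At +5823 bp, where the mark itself was low, A/J input was 5, 15 and 14.5 against 0 (at least 8.92-fold higher).

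At the *Nlrp1c-ps* start site the input was 5, 19 and 2 counts in A/J, 8 in C57BL/6J and 0 in BALB/cJ, below the filter of 5 normalized counts, so it was not tested and the A/J level was at least 6.72-fold higher. At -4458 bp BALB/cJ had 0, 0.5 and 0.5 input counts against 13, 20 and 8 in A/J (ratio 31.8, exact interval 5.40 to 1287). In all, 5 of 56 windows combined at least 15 A/J input counts with 0 from BALB/cJ, against 12 of 94285 windows of all genes (0.0127%). Since BALB/cJ lacked input reads as well as ChIP reads in these windows, less acetylation and fewer mapped reads cannot be told apart there.

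The windows without any BALB/cJ input count spanned chr11:71224410-71285896, 61.5 kb in which BALB/cJ was measured through 5 windows. The nearest window with BALB/cJ input before the span lay 64.0 kb away, a *Nlrp1a* window with 21 input counts, and the nearest after it 3.29 kb away, with 1 count. Within 300 kb of the outermost *Nlrp1* windows, the 16 windows of 6 other genes all lay on the *Nlrp1a* side, 211 to 385 kb from the *Nlrp1b* start site. They held 15.5 to 39 BALB/cJ input counts and 23 to 65.5 A/J counts. In their 14 tested windows the log2 fold change of the mark stayed under 1 in size, at -0.59 to 0.85 for A/J over BALB/cJ, -0.82 to 0.40 for A/J over C57BL/6J and -0.86 to 0.49 for BALB/cJ over C57BL/6J. Input at the 3 *Nlrp1a* windows was 28.5 to 36 counts in A/J and 16 to 21 in BALB/cJ.

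**Figure D3:**
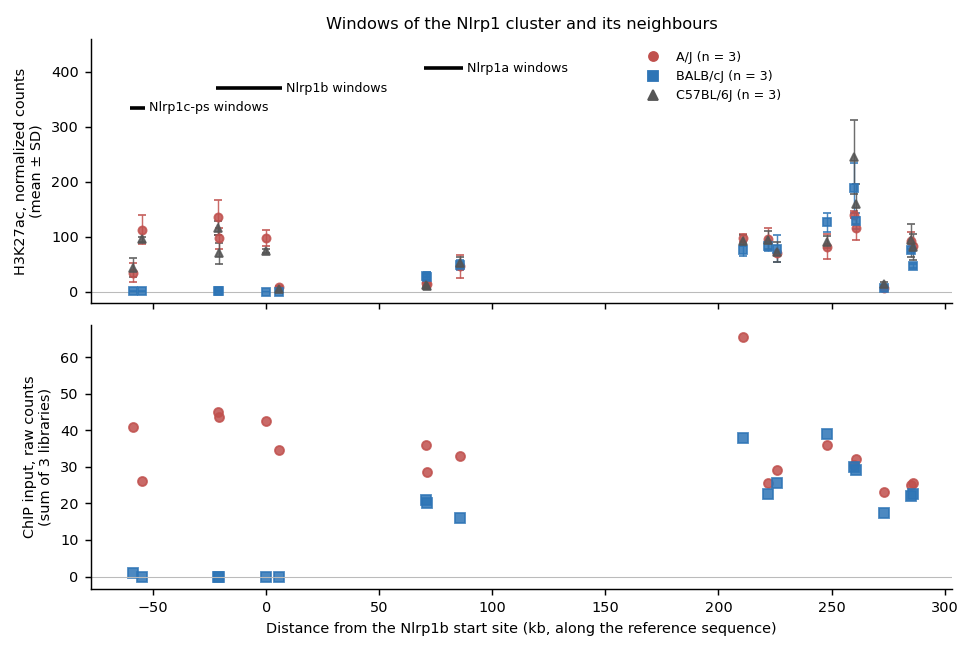
Windows of the Nlrp1 cluster and its neighbors by distance from the Nlrp1b start site in kb (x axis), with H3K27ac in normalized counts (upper panel, points and bars are mean ± SD of 3 libraries per strain) and raw ChIP input counts summed over 3 libraries for A/J and BALB/cJ (lower panel). BALB/cJ is at or near 0 in both panels over the Nlrp1b and Nlrp1c-ps windows and, to the right of them, lies above both other strains in the upper panel at the Nlrp1a windows near 71 kb.

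The windows themselves were merged from 5 sets of ATAC-seq peaks (A/J, BALB/cJ and C57BL/6J untreated, and BALB/cJ and C57BL/6J 2 h after lipopolysaccharide), whose libraries were not analysed here. None of the 6 *Nlrp1b* and *Nlrp1c-ps* windows listed a BALB/cJ set, as held for 9.63% of all windows (9282) and 11 of the 56 windows described. All 3 *Nlrp1a* windows listed one.

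In the hybrids, *Nlrp1a* was read from both alleles. Its promoter window had 17.5, 12 and 27 variant-spanning counts from the BALB/cJ allele and 18.5, 29.5 and 17 from the C57BL/6J allele. The alleles overlapped, with a log2 fold change of -0.06 ± 0.50 (SE, adjusted p = 0.998, edgeR) over the regions summed into the window, and the difference between strains minus that between alleles was -0.03 ± 0.58 (SE), given without a test from a comparison where 2.12% of 5230 windows were called. In the region at -15045 bp, in the stretch where BALB/cJ was the highest strain, the BALB/cJ allele had 13.5, 26.5 and 12.5 counts and the C57BL/6J allele 1, 16.5 and 18.5. The BALB/cJ share there was 59.3% (exact 95% interval 48.1 to 69.5%), and its adjusted p was 0.766 in the fit without a count filter. None of the 107 regions reached the filter of 16 on its own, so 0 were tested in the filtered fit, where 6.54% of 4467 regions were called.

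A region of intron 3 of *Nlrp1b* that no parental window covered was read almost wholly from the BALB/cJ allele, and its reference sequence, chr11:71180313-71180512 on the plus strand (RefSeq, GRCm38.p6), is given for that reason, in lower case throughout since no motif is marked.
Nlrp1b intron 3: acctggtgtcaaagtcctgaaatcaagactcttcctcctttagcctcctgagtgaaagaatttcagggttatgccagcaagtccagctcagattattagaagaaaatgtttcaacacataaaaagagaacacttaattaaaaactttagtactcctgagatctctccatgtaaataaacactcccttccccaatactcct
The BALB/cJ allele had 20.5, 5.5 and 22.5 counts in the 3 libraries and the C57BL/6J allele 0.5, 0 and 0.5. BALB/cJ was higher in 3 of 3 libraries, at a share of 98.0% (89.1 to 99.9%). Without the count filter the fitted log2 fold change was 7.19 ± 1.40 (SE, adjusted p = 8.93e-05, edgeR), a call that was lost with the library as a block, since both alleles are read from 1 library (7.01 ± 1.14, SE, adjusted p = 0.424, edgeR). With that block, 0 of 39396 regions were called. The region lies 43.9 kb before the span without BALB/cJ input.

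Elsewhere in *Nlrp1b* and *Nlrp1c-ps* the F1 reads could not be assigned. Of their 9 other regions, 2 held any variant-spanning count, at 0.5 each. At the *Nlrp1b* promoter 16, 17 and 12 reads matched the C57BL/6J genome perfectly, with 0 crossing a known difference. A window's share of the F1 reads that match C57BL/6J perfectly, over its share of all C57BL/6J counts, gave 0.0455 to 0.584 in the 5 windows with F1 regions (0.357 at the *Nlrp1b* promoter). In the 3 *Nlrp1a* windows it was 0.853 to 2.73. The median over the 42526 windows with 100 or more C57BL/6J counts was 0.929 (quartiles 0.547 and 1.50). The *Nlrp1a* windows at -14925 and -15256 bp held fewer, at 27 and 35.5. F1 regions cover only 200 bp, and F1 input is not analysed here, so this ratio is read only against that median.

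The windows of other genes that varied most like the highest *Nlrp1b* window over the 9 parental libraries were in *Pde4b* (Pearson r = 0.999), *Enpp5* (0.994), *AI413582* (0.991), *Capzb* (0.989) and *Myadm* (0.987), among 34598 windows of 9589 genes. These libraries share depth and strain, and 51 windows passed 0.95. BALB/cJ input was present in all 5, at 8 counts in *Pde4b* and 22 to 29 in the others, in contrast to 0 at *Nlrp1b*. A/J input was 40.5 counts in *Pde4b* and 23.5 to 40 in the others, so BALB/cJ input was also low in *Pde4b*. The part of input there was not tested. The BALB/cJ mean level was 0.563 ± 0.975 in *Pde4b*, where A/J had 123 ± 27.2 and C57BL/6J 93.4 ± 8.34 (SD, n = 3).

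*Nlrp3*, the sensor of cell damage, carried the highest levels of the set, and its promoters did not pass the test in any strain contrast with C57BL/6J. At the first start site (-53 bp, chr11:59541016-59542016) normalized counts were 313, 225 and 301 in A/J, 400.2, 362 and 435 in BALB/cJ, and 281, 242 and 389 in C57BL/6J. A/J lay below BALB/cJ without overlap, and C57BL/6J overlapped both. The log2 fold change against C57BL/6J was -0.12 ± 0.23 in A/J (adjusted p = 0.854) and 0.38 ± 0.23 in BALB/cJ (adjusted p = 0.349, edgeR). At the second start site (-96 bp from it, chr11:59542090-59543090) the groups overlapped throughout, at 317 to 566 in A/J, 339 to 556 in BALB/cJ and 326 to 545 in C57BL/6J. The window with the highest mean of the set, 495, lay at +846 bp in intron 2 (chr11:59543032-59544032) with 634, 347 and 644 in A/J, 571, 385 and 619 in BALB/cJ, and 358, 335 and 563 in C57BL/6J, a level at the 99.2 percentile.

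One window of 14 in *Nlrp3* was called. At +2520 bp in intron 2 (chr11:59544706-59545706), A/J had 107, 89.0 and 128, BALB/cJ 50.7, 27.5 and 24.8, and C57BL/6J 49.3, 74.5 and 42.2. A/J exceeded every other library. It was 2.08-fold higher than in C57BL/6J (1.05 ± 0.30, SE, adjusted p = 0.0240, edgeR), and the fitted difference from BALB/cJ was 3.13-fold. The window was also called between A/J and BALB/cJ, the contrast that chose the genes, with the same A/J libraries. The p against C57BL/6J is thus not independent of that choice. BALB/cJ and C57BL/6J overlapped (-0.59, adjusted p = 0.289). The call against C57BL/6J did not hold without A/J replicate 1, A/J replicate 3, C57BL/6J replicate 1 or C57BL/6J replicate 3, with log2 fold changes of 0.86 to 1.07 and adjusted p of 0.0617 to 0.206. Over the 14 windows the median difference from C57BL/6J was -0.11 for A/J and 0.14 for BALB/cJ.

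*Nlrc4*, the adaptor that NAIP proteins engage, was likewise high at its start in all strains and differed at an intron window. At -113 bp (chr17:74458721-74459721) the levels were 267, 217 and 309.8 in A/J, 215, 179 and 270.2 in BALB/cJ, and 235, 186 and 332 in C57BL/6J. All groups overlapped, with log2 fold changes of 0.07 ± 0.24 in A/J (adjusted p = 0.922) and -0.19 in BALB/cJ (adjusted p = 0.726, edgeR), each against C57BL/6J. The highest window, at +917 bp, had 269, 297 and 368 in A/J, 254, 227 and 207 in BALB/cJ, and 209, 224 and 287 in C57BL/6J, with adjusted p of 0.382 and 0.898.

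At +11630 bp, in intron 3 of *Nlrc4* (chr17:74446978-74447978), A/J stood above both other strains. Normalized counts were 31.7, 71.2 and 42.7 in A/J, 2.53, 4.58 and 5.84 in BALB/cJ, and 13.3, 0 and 5.67 in C57BL/6J. Every A/J library lay above every other library. The level of 48.5 ± 20.4 in A/J was 6.49-fold that of C57BL/6J at 6.33 ± 6.69 (SD, n = 3 each, log2 2.70 ± 0.52, SE), and 10.2-fold the 4.32 ± 1.67 of BALB/cJ. The window passed the level filter through A/J alone and was drawn from an A/J peak set, which a fit without a filter does not undo. Its call is therefore a description, and no p is given. The other strains overlapped, with a fitted difference of -0.66 ± 0.68 (SE) for BALB/cJ against C57BL/6J. Input reads were present in all strains here, with 33.5 counts from A/J, 20.5 from BALB/cJ and 4 from the single C57BL/6J library. The window listed the A/J peak set alone, as did 1.58% of all windows. The other 12 *Nlrc4* windows were not called, the nearest being +18400 bp (0.80 ± 0.27, adjusted p = 0.0658, A/J against C57BL/6J).

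The reference sequence of the center of this window, chr17:74447379-74447578 on the plus strand (RefSeq, GRCm38.p6), is shown because this window had the largest fitted difference between A/J and C57BL/6J of the 51 tested, with input reads in every strain. Capitals mark an IRF motif, GAAANTGAA, from base 27 of 200 and a C/EBP motif, TTNNGCAA, from base 79.
Nlrc4 intron 3: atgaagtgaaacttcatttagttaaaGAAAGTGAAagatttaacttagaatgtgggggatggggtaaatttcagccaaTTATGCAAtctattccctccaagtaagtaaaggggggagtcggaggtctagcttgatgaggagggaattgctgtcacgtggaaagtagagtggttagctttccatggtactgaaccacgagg
Of 96238 window centers of this length, 2.64% held the IRF letters and 11.5% the C/EBP letters. These are C57BL/6J reference letters, and the A/J sequence was not read.

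**Figure D4:**
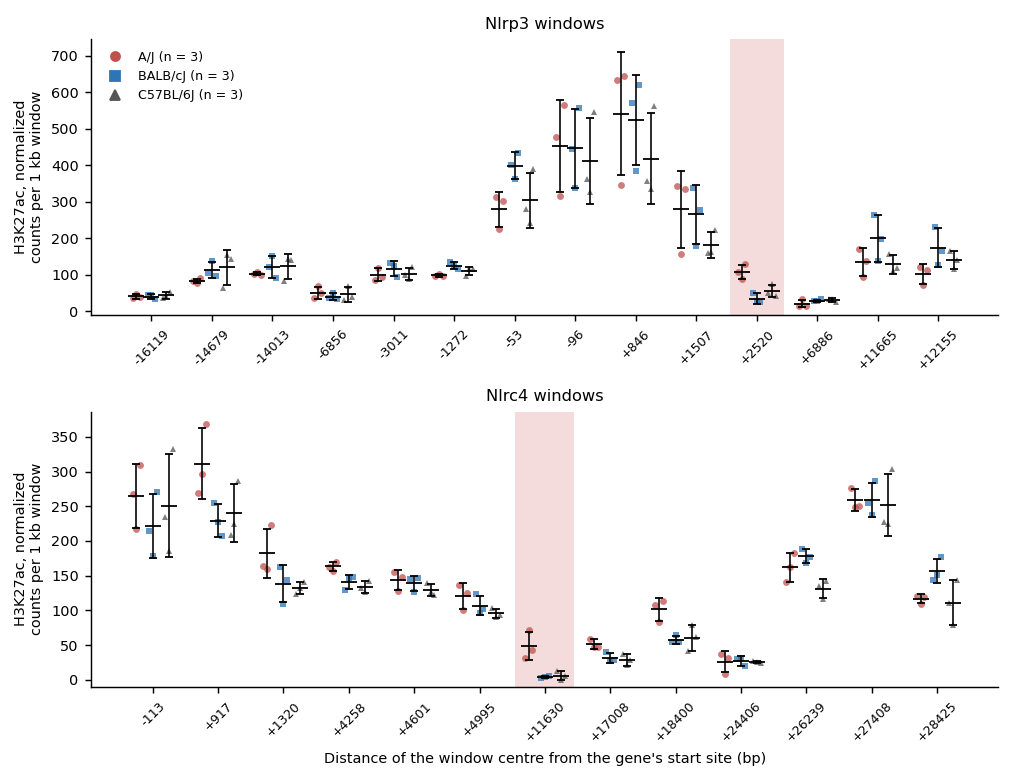
H3K27ac in normalized counts per 1 kb window (y axis) at the tested Nlrp3 and Nlrc4 windows by distance from the start site in bp (x axis), with points for libraries and bars for the mean ± SD of 3 libraries per strain. Shading marks the windows called between A/J and C57BL/6J, at +2520 bp in Nlrp3 and +11630 bp in Nlrc4, where the A/J points lie above the others.

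The *Naip* genes, which encode receptors for bacterial flagellin and type III secretion proteins, were the members in which C57BL/6J stood above both other strains. Against C57BL/6J, 8 of the 16 tested *Naip* windows were called lower in A/J (*Naip1* 5, *Naip2* 2, *Naip5* 1) and 8 in BALB/cJ (*Naip1* 7, *Naip2* 1), with 0 called higher. The BALB/cJ count includes the *Naip1* window at +15992 bp, which passed the level filter through C57BL/6J alone. In the same fit 3.93% and 4.1% of all windows were called lower. Without the level filter 9 and 8 of all 19 *Naip* windows were called lower, where 5186 and 6391 of all 96381 windows were called in either direction. The median log2 fold change of *Naip1* over its 9 windows was -1.44 for A/J and -1.53 for BALB/cJ, that of *Naip2* over 6 windows -0.54 and -0.67, and the 1 window of *Naip5* gave -1.22 and -0.82.

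*Naip1*, whose protein binds the needle subunit of type III secretion systems, differed most. At +240 bp in intron 1 (chr13:100452124-100453124), the window nearest its start site and its highest, normalized counts were 79.5, 89.0 and 88.6 in A/J, 39.7, 64.1 and 69.4 in BALB/cJ, and 268, 324 and 362 in C57BL/6J. The lowest C57BL/6J library was above the highest of either other strain. C57BL/6J, at 318 ± 47.4 (SD, n = 3), was 3.73-fold above A/J at 85.7 ± 5.37 (log2 -1.90 ± 0.24, SE, adjusted p = 3.17e-06) and 5.56-fold above BALB/cJ at 57.7 ± 15.8 (-2.48 ± 0.25, SE, adjusted p = 8.14e-08, edgeR). A/J gave 29 input counts, BALB/cJ 22.5 and the single C57BL/6J library 5.

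The overlapping upstream window at -443 bp (chr13:100452807-100453807) shared part of these reads and had 67.0, 65.3 and 67.3 in A/J, 34.6, 64.1 and 45.3 in BALB/cJ, and 149, 184 and 208 in C57BL/6J. The differences were 2.71-fold for A/J (adjusted p = 2.42e-04) and 3.94-fold for BALB/cJ (adjusted p = 5.24e-06, edgeR). Farther into intron 1, at +1552 bp, A/J had 16.2, 23.7 and 34.9, BALB/cJ 11.0, 27.5 and 16.1, and C57BL/6J 79.9, 112 and 109. C57BL/6J was again clear of the others, by 3.93-fold over A/J (adjusted p = 1.61e-04) and 6.05-fold over BALB/cJ (adjusted p = 8.83e-06, edgeR). At +3206 bp it was higher by 2.82-fold (adjusted p = 0.00367) and 2.89-fold (adjusted p = 0.00255, edgeR), with 47.9 to 55.9 against 15.2 to 23.7 in the other 6 libraries.

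Beyond the 3′ end of *Naip1*, the intergenic window at +49752 bp (chr13:100402612-100403612) again had C57BL/6J as the highest strain, with 32.4, 47.5 and 38.8 in A/J, 51.8 and 68.7 in BALB/cJ replicates 3 and 2 with replicate 1 lower, and 112, 112 and 139 in C57BL/6J. The folds were 3.20 (adjusted p = 0.00182) and 2.85 (adjusted p = 0.00392, edgeR), without overlap. A pair of windows was called in BALB/cJ and not in A/J. At +15992 bp in intron 5, C57BL/6J had 21.3, 34.9 and 20.8, BALB/cJ 7.60, 11.4 and 5.84 and A/J 8.10, 23.7 and 12.9. C57BL/6J was 3.19-fold above BALB/cJ, and A/J gave -0.92 on the log2 scale. The window passed the level filter through C57BL/6J alone, which a fit without a filter does not undo. Its call is therefore a description, and no p is given. At -997 bp the values were -1.40 ± 0.43 (SE, adjusted p = 0.0327) in BALB/cJ and -0.93 (adjusted p = 0.195, edgeR) in A/J. Whether the strains differ from C57BL/6J by unequal amounts there was not tested. Both calls were lost without single libraries, at +15992 bp without BALB/cJ replicate 1 or 3. At -997 bp the call was lost without BALB/cJ replicate 1 or 3 or C57BL/6J replicate 2 or 3 (adjusted p of 0.0891 to 0.255, edgeR). The *Naip1* window at -997 bp listed only C57BL/6J peak sets. No BALB/cJ set was listed by 3 of the 11 *Naip1* windows (27.3%), at -997, -443 and +15992 bp, against 9.63% of all windows.

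Near the 3′ end of *Naip1* the direction was the other way without a call. At +43518 bp in intron 15, A/J had 36.8, 32.6 and 32.3, BALB/cJ 31.2, 36.6 and 38.0, and C57BL/6J 20.0, 27.9 and 6.93. C57BL/6J lay below the other 6 libraries, with log2 fold changes of 1.11 ± 0.41 (SE, adjusted p = 0.108) in A/J and 1.15 (adjusted p = 0.0764) in BALB/cJ. With the replicate number as a block both were called, at 1.19 (adjusted p = 0.0146) and 1.22 (adjusted p = 0.00951, edgeR).

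*Naip2*, which encodes the receptor for the inner rod protein of type III secretion, differed less at its start. At +160 bp (chr13:100201462-100202462, exon 1) the counts were 142, 113 and 149 in A/J, 167, 119 and 102 in BALB/cJ, and 265, 156 and 219.8 in C57BL/6J. C57BL/6J exceeded A/J without overlap and overlapped BALB/cJ, and neither difference was called (-0.66 ± 0.24, SE, adjusted p = 0.107, and -0.73, adjusted p = 0.0543, edgeR).

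The called *Naip2* windows lay away from the start. At +18817 bp in intron 5, A/J had 24.3, 29.7 and 38.2, BALB/cJ 67.5, 50.4 and 70.8, and C57BL/6J 115, 74.5 and 111. The 3 groups did not overlap, A/J being lowest and C57BL/6J highest, at 3.27-fold between them (-1.71 ± 0.29, SE, adjusted p = 1.50e-04) and -0.66 for BALB/cJ (adjusted p = 0.124, edgeR). A/J was also called lower than BALB/cJ here, in the contrast that chose the genes, so the A/J p is not independent of that choice. At -1399 bp A/J had 14.0, 14.8 and 11.6 against 50.6, 76.8 and 29.0 in C57BL/6J, a 3.71-fold difference (-1.89 ± 0.43, SE, adjusted p = 0.00408, edgeR). BALB/cJ had 35.5, 45.8 and 16.8 there and overlapped C57BL/6J. This window listed no A/J peak set, as held for 40.6% of all windows. At +3209 bp it was BALB/cJ that was called, with 20.3, 20.6 and 21.9 against 44.0, 48.9 and 59.2, a 2.44-fold difference (-1.29 ± 0.35, SE, adjusted p = 0.0146, edgeR), which was lost without BALB/cJ replicate 1 or 3 or C57BL/6J replicate 3 (adjusted p of 0.0594 to 0.122).

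*Naip5*, which with *Naip6* encodes the flagellin receptors and whose A/J allele is known for permitting growth of Legionella in macrophages, had 1 window, at +103 bp in intron 1 (chr13:100246733-100247733). Normalized counts were 37.5, 53.4 and 40.1 in A/J, 55.7, 59.5 and 51.8 in BALB/cJ, and 99.9, 69.9 and 117 in C57BL/6J. Every C57BL/6J library was above all others. A/J was 2.33-fold lower (-1.22 ± 0.27, SE, adjusted p = 0.00365, edgeR), a call lost without C57BL/6J replicate 3 (-1.04, adjusted p = 0.0610). BALB/cJ passed the p threshold and not the fold threshold (-0.82 ± 0.26, SE, adjusted p = 0.0450).

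**Figure D5:**
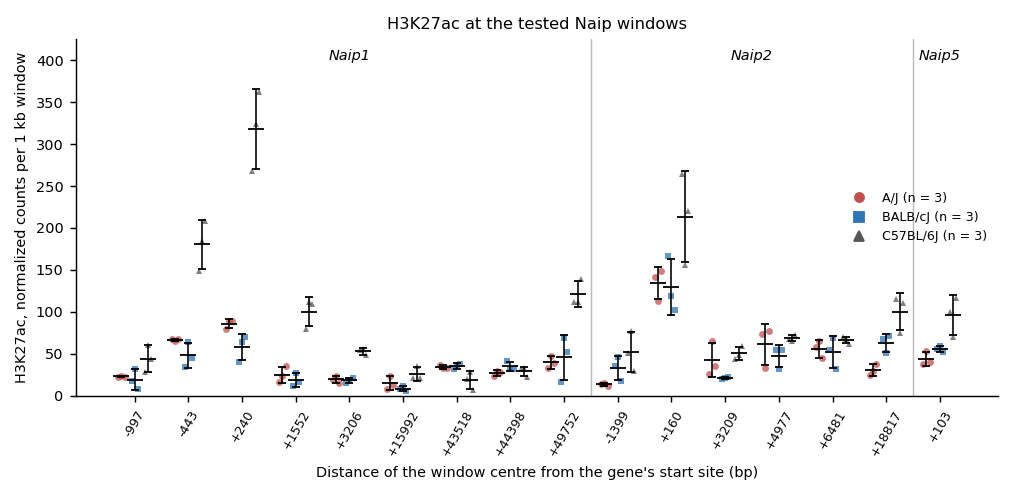
H3K27ac in normalized counts per 1 kb window (y axis) at the 16 tested Naip windows by distance from each gene's start site in bp (x axis). Points are libraries and bars the mean ± SD of 3 libraries per strain, and the C57BL/6J points lie above both other strains from -443 to +3206 bp and at +49752 bp of Naip1, at +18817 bp of Naip2 and at +103 bp of Naip5.

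The ChIP input of the *Naip* windows had no common order of strains. Of the 11 *Naip* windows called against C57BL/6J, the single C57BL/6J input library was the highest strain in 6, by the mean normalized input, and not in 5. The 6 were *Naip1* at +1552, +240 and -443 bp and *Naip2* at +18817, +3209 and -1399 bp. At *Naip1* +240 bp it had 8.61 against 7.40 in A/J and 7.95 in BALB/cJ, and at *Naip2* -1399 bp 13.8 against 7.89 and 7.01, the widest gap over BALB/cJ of the 11, at 1.96-fold. The widest gap over A/J was 2.17-fold, at *Naip1* -443 bp. The part of input in these calls was not tested. Of the 18 *Naip* windows tested in the input, edgeR called 0 between A/J and BALB/cJ. An unadjusted p under 0.05 was met by 3, a count given without the share over all windows, so nothing is read from it. The gap with the lowest p was at +44398 bp, over the last exon of *Naip1*, with 6, 25 and 3 counts in A/J and 20.5, 17 and 25.5 in BALB/cJ (-1.33 ± 0.40, SE, adjusted p = 0.688, edgeR). The single C57BL/6J input library held 1 to 8.5 counts in the tested *Naip* windows and, without a replicate, was given no test. Within 300 kb of the *Naip* windows, 4, 9 and 3 of 26 tested windows of 13 other genes were called in the A/J to BALB/cJ, A/J to C57BL/6J and BALB/cJ to C57BL/6J contrasts, all lower in the first named strain. They belonged to *Marveld2*, *Ccdc125* and *Smn1*, and the lowest log2 fold change was -5.32, in a *Marveld2* window in A/J.

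The hybrids gave little on the alleles of the *Naip* genes and none on *Nlrp3*, *Naip5* and *Nlrc4*, because few F1 reads crossed a known difference. Of the 107 regions 13 (12.1%) held a variant-spanning count, against 19.1% of all regions, 5 of them in *Naip1* and 1 in *Naip2*. In the *Naip1* region at +49775 bp, inside the called window at +49752 bp, the BALB/cJ allele had 1, 0 and 2.5 counts and the C57BL/6J allele 0.5, 0.5 and 3, a BALB/cJ share of 46.7% (exact 95% interval 15.7 to 84.3%). In the next region, at +50613 bp, inside the window at +50868 bp that was below the level filter, the BALB/cJ allele had 0, 0 and 2 counts and the C57BL/6J allele 2.5, 12.5 and 1.5. The C57BL/6J allele was higher in 2 of 3 libraries, and the BALB/cJ share was 10.8% (1.38 to 34.7%). The 3 other *Naip1* regions, at +43600 to +45229 bp, had BALB/cJ shares of 35.7% to 71.4%, and none of the 5 was called without a filter (adjusted p of 0.687 to 0.998, edgeR). The *Naip1* promoter region had 0 variant-spanning reads among 60, 227 and 105 reads that matched the C57BL/6J genome and 39, 186.5 and 99.5 that matched the BALB/cJ genome, so variant-spanning counts gave no allele comparison there.

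Among 34 other genes of the inflammasome pathway, from upstream receptors to caspases and cytokines, 32 had windows (323, of which 239 were tested). Against C57BL/6J, 15 windows of 5 genes were called in A/J (6.28%, 5 higher and 10 lower) and 16 windows of 8 genes in BALB/cJ (6.69%, 8 higher and 8 lower), where 7.09% and 8.56% of all windows were called. Their median log2 fold changes were -0.03 and -0.05. The start-site windows of the shared machinery were not called: *Pycard*, the adaptor ASC, had 0.30 in A/J (adjusted p = 0.626) and 0.28 in BALB/cJ (adjusted p = 0.624, edgeR). *Casp1* had 0.12 and 0.03, *Casp4* 0.27 and 0.02, and *Gsdmd*, the pore protein, -0.13 and -0.25. The cytokine genes *Il1b* and *Il18* had -0.48 and 0.00 in A/J and -0.47 and -0.12 in BALB/cJ, and *Nek7*, a kinase that NLRP3 needs, had 0.39 and 0.53 (adjusted p = 0.333 and 0.119, edgeR).

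Calls in this list lay in receptors, regulators and a distal window of *Il1b*. *Mefv*, which encodes the sensor pyrin, had 128, 149 and 125 at its promoter in C57BL/6J, 29.5, 59.5 and 46.7 in BALB/cJ, and 0.736, 14.8 and 2.59 in A/J. The 3 strains did not overlap, and the log2 fold changes were -5.29 ± 0.49 (SE, adjusted p = 2.72e-08) in A/J and -1.61 ± 0.34 (SE, adjusted p = 0.00193, edgeR) in BALB/cJ. *Nod1*, a receptor for bacterial peptidoglycan, had 276, 298 and 388 at +16337 bp in C57BL/6J, against 40.5 to 47.9 in A/J (-2.86 ± 0.25, SE, adjusted p = 1.13e-08) and 29.8 to 49.0 in BALB/cJ (-2.99, adjusted p = 5.47e-09, edgeR). In both genes C57BL/6J was the highest strain.

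*P2rx7*, the ATP-gated channel upstream of NLRP3, went the other way at -5984 bp, with 7.99, 4.66 and 3.15 in C57BL/6J against 86.1, 17.8 and 31.7 in A/J (3.31 ± 0.62, SE, adjusted p = 0.00122) and 70.9, 18.3 and 40.9 in BALB/cJ (3.22, adjusted p = 0.00150, edgeR). *Pstpip1*, which encodes a pyrin-binding protein, was low in A/J at +4979 bp (3.68, 0 and 1.29 against 37.3, 65.2 and 46.0 in C57BL/6J, adjusted p = 5.69e-07, edgeR). *Nod2* at -971 bp had 32.1, 45.8 and 48.2 in BALB/cJ against 2.66, 6.99 and 3.78 in C57BL/6J, with an A/J mean of 13.6. That window passed the level filter through BALB/cJ alone, so its values are a description and no p is given. The distal *Il1b* window at -43143 bp was higher in BALB/cJ than in C57BL/6J (103, 96.1 and 84.7 against 25.3, 27.9 and 26.5, adjusted p = 1.12e-04, edgeR). The remaining called genes were near the fold threshold. *Aim2*, a sensor of cytosolic DNA, was higher in A/J at -9426 bp (1.04, adjusted p = 0.0367) and lower in BALB/cJ at +9220 bp (-1.03, adjusted p = 0.0119), *Irf8* was higher in BALB/cJ (1.08, adjusted p = 0.0271) and *Txnip* lower in BALB/cJ (-1.01, adjusted p = 0.00414, edgeR).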

How the data were processed

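H3K27ac ChIP-seq and ChIP input reads were aligned by the authors with Bowtie2 to strain-specific versions of mm10 that carry known SNPs and indels and no larger structural variants, and shifted back to mm10 coordinates. Window counts were made with HOMER over merged ATAC-seq peaks, each named for its nearest start site. The parental ChIP values deposited by the authors are raw counts, unscaled, whole in replicates 1 and 3. Replicate 2, the inputs and the F1 columns are deposited as estimated counts in steps of 0.5, whose origin is not given in the sources used here, nor is the handling of reads with several equal matches. F1 columns count reads that match a parental genome perfectly, either all of them or those that span a variant. F1 input and the ATAC-seq libraries are not analysed here, and 0 deposited sample columns were left unmapped.

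Counts were rounded to whole numbers and tested with edgeR 4.0.16 in R 4.3.3 (quasi-likelihood, robust, TMM factors, strain as the single term). Windows with a mean normalized count over 16 (input, at least 5) were tested, with a call where the adjusted p fell under 0.05 and the log2 fold change exceeded 1 in size. The edgeR tests were first run on simulated counts with known changes. Alleles were compared in the same way, and the strain difference was set against the allele difference in 1 model over both tables, where 1 member window, the *Nlrp1a* promoter, was tested and 2.12% of 5230 windows were called. Intervals are Clopper-Pearson at 95% (scipy 1.17.1), folds against 0 use a floor of 3 counts per group, and both cover counting error only. Sequences and motifs were read from RefSeq tables with Python 3.11.15 and promoters aligned with Biopython.

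Members and gene lists were chosen with earlier results of these data known. For each gene, the window nearest the start site, the highest window and every window called in a contrast with a printed p are described, and from the pathway list the start-site windows of 7 fixed genes and the called window of lowest p of each called gene. Windows above the filter that overlap share reads. Libraries of the same replicate number deviated together, with correlations of 0.227 to 0.414 in 9 same-number pairs of parental strains and -0.317 to 0.063 in 18 others, which pairs them by the data, and both alleles of an F1 library share its reads (0.168 to 0.182 against -0.12 to -0.033). Alternatives were DESeq2 1.42.0, RLE size factors, no filter, a replicate block, other rounding and leaving out each library. The precision at the depth of each library is set by 2291425.5 to 12980348 ChIP counts.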

Additional observations from a re-analysis of the deposited data

Results flagged for a closer look

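F1 reads that match the C57BL/6J genome perfectly without having to span a variant lie outside the allele comparison, and their sums over regions and the 3 F1 libraries were above the limit that a count of 0 allows for every gene with a region. They were 140 for *Nlrp1a*, 184 for *Nlrp1b*, 108.5 for *Nlrp1c-ps*, 4675 for *Nlrp3*, 1361.5 for *Naip1*, 1321 for *Naip2*, 342 for *Naip5* and 3343 for *Nlrc4*. The reads that match the BALB/cJ genome gave 137.5, 230, 108.5, 4698, 1282.5, 1326, 341.5 and 3355.5 in the same order. *Nlrp1b* was the gene with the widest relative gap between the columns, and its excess of BALB/cJ matches lies in the intron 3 region, with 20.5, 5.5 and 22 reads that match BALB/cJ against 0.5, 0 and 0.5. In the 2 other *Nlrp1b* and *Nlrp1c-ps* regions nearest the start sites, the columns held 44 against 45 reads at the *Nlrp1b* promoter and 56.5 in both at that of *Nlrp1c-ps*.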

How the results depend on the processing

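Of 36 named values under 494 combinations of value and setting, 474 kept their direction and side of the threshold, 14 lost their call and 6 turned direction, all of them on leaving out 1 library. Those that turned had not been called: against C57BL/6J, A/J at *Nlrp3* -53 bp gave 0.11 without C57BL/6J replicate 3 (range over left-out libraries -0.25 to 0.11), and at *Nlrc4* -113 bp -0.05 without A/J replicate 3 and -0.09 without C57BL/6J replicate 2 (-0.09 to 0.34). BALB/cJ gave 0.08 at *Nlrc4* -113 bp (-0.36 to 0.08) and 0.09 at +917 bp (-0.17 to 0.09) without C57BL/6J replicate 3, and 0.05 at +11630 bp without C57BL/6J replicate 1 (-1.10 to 0.05). The cause was not tested. Calls lost without single libraries are given with their windows. Over all settings, 6 to 9 member windows passed between A/J and BALB/cJ, 8 to 11 between A/J and C57BL/6J and 10 to 16 between BALB/cJ and C57BL/6J. With the replicate block the counts were 9, 11 and 16, and outside the *Nlrp1* genes it changed no other call than those of the *Naip1* +43518 bp window and the *Naip2* -1399 bp window (A/J against BALB/cJ, -1.08). In the input, 3 to 5 member windows were called on leaving out a library, with 3 without A/J input replicate 2, and 5 with a replicate block. Input numbers shared no deviation (-0.01 to 0.041). Without the count filter 1 F1 region of the members was called and 0 with it, since fewer regions are tested with it, and 0 without the filter and with the library as a replicate block, a setting chosen after seeing the data.

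Over all windows, the calls between A/J and BALB/cJ went from 2192 to 3257 with the block and 1331 without BALB/cJ replicate 3, those between A/J and C57BL/6J from 4282 to 2719, and those between BALB/cJ and C57BL/6J from 5171 to 3328, both without C57BL/6J replicate 3. The F1 calls by edgeR went from 292 (326 by DESeq2) to 0 with the library as a replicate block, 515 without a filter and 56 to 328 on leaving out an F1 library, the calls of the strain against the allele difference from 111 to 212 without a filter and 67 to 135 on leaving out a library, and the input calls from 36 down to between 6 and 29 on leaving out a library. The F1 comparison is limited by the reads that cross a known difference, which 13 of 107 regions held, and the single C57BL/6J input allows no test against that strain.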
